A study of Rattus norvegicus with 2 samples.

Results

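The genes of the mitochondrial respiratory chain were examined in single heart cells of neonatal rats that had been treated with lipopolysaccharide (LPS), a component of the bacterial cell wall, or with saline. The genes were taken by symbol: every entry of the gene list that starts with Mt-, Nduf, Sdh, Uqcr, Cox followed by a digit, or Atp5, with *Ndufa4l2* left out. This gave 123 of the 25399 entries, of which 13 lie in the mitochondrial genome and 110 in the nuclear genome. The nuclear entries carry 106 symbols, because *Cox6b1*, *Ndufa10l1*, *Ndufv3* and *Uqcrb* have a second entry each. By function 85 nuclear entries were assigned to structural subunits and 25 to factors that assemble or regulate the complexes. Over all cells 104 nuclear entries and all 13 mitochondrial genes reached 50 unique molecular identifiers (UMIs, each counting 1 captured RNA molecule) over both libraries, and 6 entries (*Cox7a1*, *Cox7b2*, *Cox8c*, *Cox6c-ps1*, *Ndufa1* and *Atp5pb*) stayed at 3 UMIs or fewer. *Ndufa1* and *Atp5pb* encode subunits of complexes I and V, and for such entries a missing transcript cannot be told apart from reads that the counting did not assign to the entry.

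Cells came from Sprague-Dawley rats aged 1 to 3 days, with males and females pooled, and were enriched for intrinsic cardiac adrenergic (ICA) cells on a Percoll density gradient. They were plated and exposed for 2 h to saline (control) or to 1 µg/mL LPS, and each condition gave 1 library made with the 10X Genomics 3′ kit, v2. The harvested band also holds fibroblasts, immature cardiomyocytes and macrophages, so the samples are mixed cells although the labels call them ICA cells. With 1 library per condition no test was possible, and an effect of LPS cannot be told apart from any other difference between the libraries.

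The control library held 11531 cells and 152624585 UMIs, the LPS library 12689 cells and 127580475 UMIs, and the median per cell was 12479 against 9432 UMIs. The authors had placed all but 10 cells in 11 clusters, numbered 0 to 10. They named clusters 0, 1 and 7 fibroblast, cluster 3 ICA and cardiomyocyte, clusters 4 and 5 endothelial and cluster 6 macrophage, and left clusters 2, 8, 9 and 10 without a name. Cluster 3 held 836 control and 929 LPS cells. In the paper ICA cells formed only a subcluster of it, and they were not separated from the cardiomyocytes here. Of 7 cardiomyocyte markers 6 were measured, and they summed to 10048 UMIs per 1000000 UMIs of the cluster (CPM) in control cells of cluster 3, against 187 CPM in cluster 0. The adrenergic markers *Dbh*, *Ddc*, *Th* and *Pnmt* summed to 75.2 CPM in control and 81.9 CPM in LPS cells of cluster 3. *Th*, the gene of tyrosine hydroxylase, was at 0 in this cluster in both libraries, though not in every other cluster. Barcode sequences found in both libraries numbered 194, and leaving those cells out kept every sum and single gene tried within its counting interval.

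The respiratory chain lies in the inner mitochondrial membrane. Complexes I and II pass electrons from NADH and succinate through complex III to complex IV, which reduces oxygen, and complexes I, III and IV pump the protons that drive ATP synthase, called complex V here. The mitochondrial genome encodes core subunits of every complex except complex II, and the nuclear genome encodes the rest. Heart muscle cells are rich in mitochondria, and striated muscle uses its own isoforms of some complex IV subunits.

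Promoters of a few nuclear members are printed first, because the same members recur in the comparisons: *Cox6a2* and *Cox8b* as the muscle isoforms of complex IV, *Cox8a* as the widely expressed partner of *Cox8b*, *Atp5mc3* as the ATP synthase gene furthest above fibroblasts in cluster 3, and *Sdhaf1*, *Ndufaf4* and *Cox17* as the factors with the highest LPS to control ratios in cluster 0. Each sequence is the 250 bases before the RefSeq transcript start in build GRCr8, 5′ to 3′ on the strand of the gene. Capitals mark words that were searched for on either strand: the palindrome GCGCAT joined to GCGC for NRF-1, CCGGAAG for ETS factors such as GABPA, AAGGTCA for the estrogen-related receptors (ERR), CTA and TAG with 4 bases of any kind between them for MEF2, TGANTCA for AP-1, and the kappaB motif. No word contains another. The build behind the counts is not given in the sources used here.
Cox6a2: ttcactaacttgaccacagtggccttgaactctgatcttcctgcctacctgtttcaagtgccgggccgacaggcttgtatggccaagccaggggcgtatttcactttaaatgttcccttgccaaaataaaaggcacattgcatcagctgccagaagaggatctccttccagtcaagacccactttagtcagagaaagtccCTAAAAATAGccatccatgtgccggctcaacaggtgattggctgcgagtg
Cox8b: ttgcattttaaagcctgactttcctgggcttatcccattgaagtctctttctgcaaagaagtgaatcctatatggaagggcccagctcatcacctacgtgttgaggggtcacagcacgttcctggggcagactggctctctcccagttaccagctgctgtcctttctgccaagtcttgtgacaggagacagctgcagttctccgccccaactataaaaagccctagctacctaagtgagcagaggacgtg
Cox8a: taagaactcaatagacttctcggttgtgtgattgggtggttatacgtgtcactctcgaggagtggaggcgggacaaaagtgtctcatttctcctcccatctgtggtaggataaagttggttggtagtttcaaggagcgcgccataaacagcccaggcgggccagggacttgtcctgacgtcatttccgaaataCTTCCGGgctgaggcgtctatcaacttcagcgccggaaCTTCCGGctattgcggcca
Atp5mc3: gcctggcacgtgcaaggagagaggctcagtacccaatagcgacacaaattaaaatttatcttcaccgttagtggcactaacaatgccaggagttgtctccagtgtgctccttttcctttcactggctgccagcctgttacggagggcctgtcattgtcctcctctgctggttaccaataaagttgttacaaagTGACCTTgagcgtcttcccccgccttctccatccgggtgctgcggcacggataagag
Sdhaf1: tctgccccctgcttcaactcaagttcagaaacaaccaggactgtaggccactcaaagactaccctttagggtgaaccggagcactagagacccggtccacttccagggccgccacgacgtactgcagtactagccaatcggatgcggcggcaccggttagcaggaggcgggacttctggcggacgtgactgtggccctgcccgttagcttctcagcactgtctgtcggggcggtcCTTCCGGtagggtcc
Ndufaf4: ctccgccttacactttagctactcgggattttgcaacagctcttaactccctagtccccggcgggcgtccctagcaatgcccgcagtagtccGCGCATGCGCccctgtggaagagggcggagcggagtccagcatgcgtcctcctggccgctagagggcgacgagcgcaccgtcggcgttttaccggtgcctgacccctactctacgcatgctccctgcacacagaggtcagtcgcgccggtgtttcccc
Cox17: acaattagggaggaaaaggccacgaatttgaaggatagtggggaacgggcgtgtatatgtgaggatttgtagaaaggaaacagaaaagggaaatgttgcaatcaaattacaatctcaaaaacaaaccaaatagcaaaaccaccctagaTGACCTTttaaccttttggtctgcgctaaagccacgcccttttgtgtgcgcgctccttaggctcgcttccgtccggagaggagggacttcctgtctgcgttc
The *Cox6a2* sequence (chr1:192219717-192219966, minus strand) held a MEF2 word 50 bases before the start, whereas that of *Cox8b* (chr1:205408274-205408523, minus strand) held none of the words. The *Cox8a* sequence (chr1:213833624-213833873, minus strand) held 2 ETS words. *Atp5mc3* (chr3:79220665-79220914, minus strand) and *Cox17* (chr11:75912020-75912269, minus strand) had an ERR word each, *Sdhaf1* (chr1:94704612-94704861, minus strand) had an ETS word 15 bases before the start, and *Ndufaf4* (chr5:43401545-43401794, plus strand) had an NRF-1 word.

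Promoters of 300 bases, which include 50 bases after the start, were found for 92 of the 106 nuclear symbols, and were compared with all 33469 in the table. The ETS word occurred in 30.4% of the members and in 8.75% of all promoters, the NRF-1 word in 7.61% and 0.852%, and the ERR word in 12.0% and 4.61%. For MEF2 the shares were 2.17% and 3.84%, for AP-1 6.52% and 7.33%, and for kappaB 3.26% and 4.18%. The ETS, NRF-1 and ERR words were thus listed more often among the members than among all promoters, whereas the MEF2, AP-1 and kappaB words were not. For the 22 factors alone the ERR share was 4.55%, beside the 4.61% of all promoters. Promoters were not matched by base composition, and its part in these shares was not tested. Among the members the MEF2 word occurred in *Cox6a2* and *Cox5b*. In the 50 bases after the start, which are not printed, *Cox6a2* also had a kappaB word and *Cox8a* an ERR word. A match is a run of letters, not a bound site.

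Nuclear respiratory chain transcripts were highest in cluster 3, and mitochondrial and nuclear genes did not stand equally far above fibroblasts there. In control cells the 13 mitochondrial genes summed to 170256 CPM in cluster 3 and 34347 CPM in cluster 0, a 4.96-fold difference (95% interval 4.95 to 4.97). The nuclear genes summed to 54832 and 35214 CPM, a 1.557-fold difference (1.552 to 1.562). The LPS library gave 160386 against 30061 CPM for the mitochondrial and 56478 against 35995 CPM for the nuclear genes. In both libraries cluster 9 had the highest mitochondrial sum, at 226952 CPM in control and 220973 CPM in LPS cells, while its nuclear sum was the lowest in control at 29624 CPM. Intervals are exact Poisson intervals for levels, exact conditional intervals for ratios and Clopper-Pearson intervals for shares, all at 95% and for counting error only. The clusters had been formed from these same genes, so differences between clusters are descriptions without a test.

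**Figure D1:**
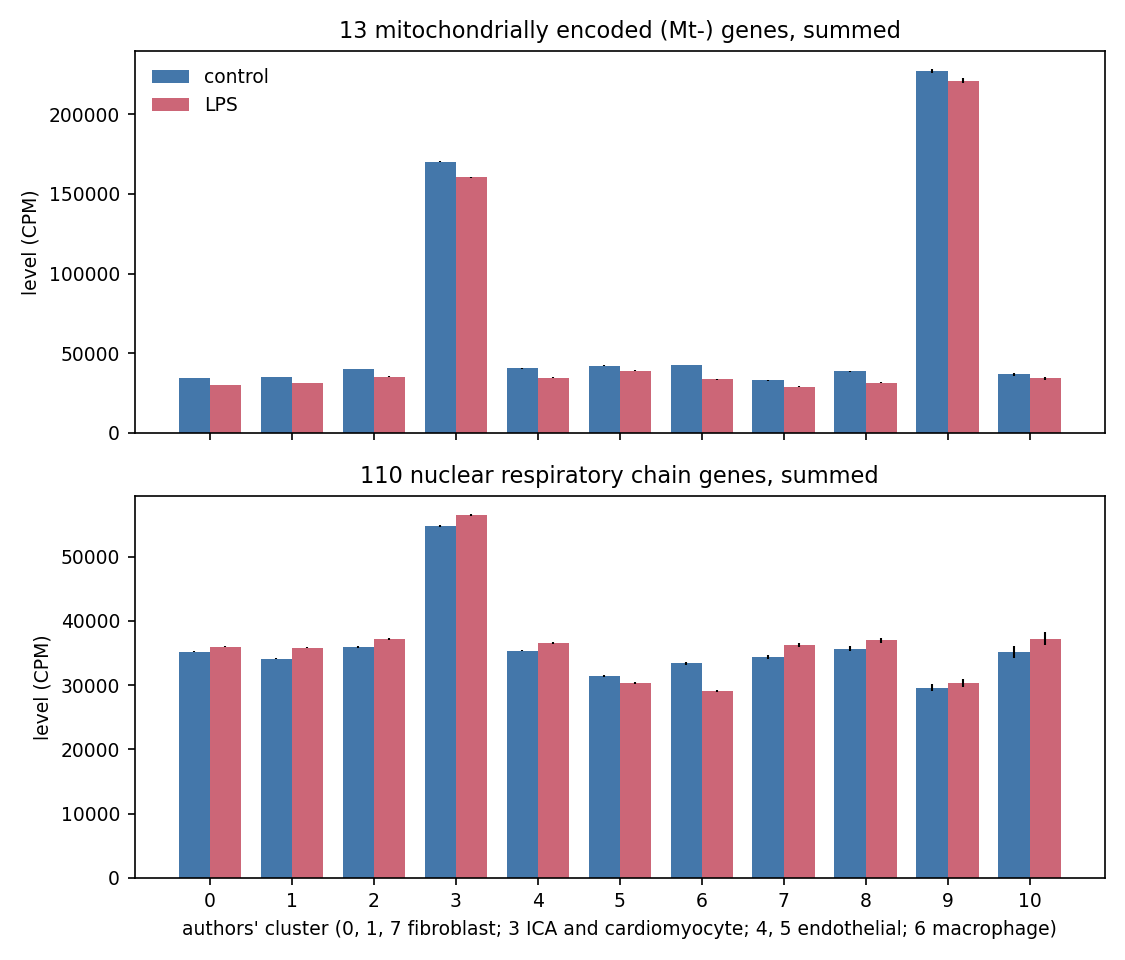
Summed level of the 13 mitochondrially encoded genes (top) and of the 110 nuclear respiratory chain genes (bottom) in CPM for each cluster, with 1 bar per library and exact Poisson intervals at 95% as error bars. Clusters 3 and 9 stand above all others for the mitochondrial genes, at 170256 and 226952 CPM in control, whereas for the nuclear genes cluster 3 alone stands apart, at 54832 CPM in control.

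Because mitochondrial UMIs took such a share of cluster 3, they lowered the CPM of every other gene there. Per 1000000 UMIs of genes other than the mitochondrial ones, the cluster 3 to cluster 0 ratio in control was 5.77 for the mitochondrial and 1.81 for the nuclear genes, and the cluster 9 to cluster 0 ratio was 8.25 and 1.05. In CPM the nuclear genes of cluster 9 were at 0.841 times the level of cluster 0, so their direction depended on this choice.

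All 13 mitochondrial genes were past 1.5-fold above cluster 0 in cluster 3 of the control library, against 25.4% of all genes tested, which had at least 50 UMIs over both clusters. Their ratios were unequal. *Mt-co1*, the catalytic subunit of complex IV, stood at 27176 against 3275 CPM, an 8.30-fold difference, and *Mt-nd4* of complex I at 6151 against 842 CPM, or 7.30-fold. *Mt-nd1* stood at 17694 against 4524 CPM, which was 3.91-fold. *Mt-nd6*, the protein-coding gene on the light strand, had the lowest ratio with 61.2 against 34.3 CPM, or 1.79-fold, next to *Mt-atp8* at 1.83-fold. *Mt-co1* made up 16.0% of the mitochondrial UMIs in cluster 3 and 9.53% in cluster 0 of the control library, and 18.3% and 10.4% in the LPS library. *Mt-atp6* took the largest part in both clusters, at 24.2% and 26.6% in control. The reading frames of *Mt-atp8* and *Mt-atp6*, and those of *Mt-nd4l* and *Mt-nd4*, overlap on a shared transcript, so the split of reads within these pairs is uncertain.

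Of 102 nuclear members tested in the same comparison 37 were past 1.5-fold higher and 4 past 1.5-fold lower in cluster 3, against 25.4% and 25.9% of all genes. The median ratio over the tested members was 1.34, and over all genes 0.992. Structural subunits gave 32 higher and 2 lower of 79, with a median of 1.40, and factors gave 5 higher and 2 lower of 23, with a median of 1.01. Summed by complex, the structural nuclear subunits in cluster 3 and cluster 0 of the control library stood at 10932 and 8337 CPM for complex I, 837 and 538 CPM for complex II, 5716 and 3916 CPM for complex III, 18113 and 10684 CPM for complex IV, and 16986 and 10001 CPM for complex V. As sums, complexes IV and V thus differed more than complexes I, II and III. The complex IV sum includes the muscle isoforms *Cox6a2*, at 2109 and 42.6 CPM, and *Cox8b*, at 550 and 8.14 CPM in these clusters. Its size without them was not computed, so the place of complex IV in this order is not shown for its other subunits.

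Single members stood further apart than these sums. *Atp5f1b*, the catalytic beta subunit of ATP synthase, was at 2527 CPM in cluster 3 and 829 CPM in cluster 0, a 3.05-fold difference. *Ndufs1*, the largest subunit of complex I, was low but 3.39-fold higher in cluster 3, with 22.5 against 6.62 CPM. *Cox10*, which makes heme O, the precursor of the heme A of complex IV, stood 4.30-fold higher (3.46 to 5.31) and the second *Ndufv3* entry 6.10-fold higher (4.56 to 8.10), the latter on 74 and 155 UMIs. At the other end *Cox4i2* had a ratio of 0.387, *Cox6b2* of 0.453, the heme factor *Cox15* of 0.645 (0.317 to 1.18), *Cox16* of 0.665 and *Sdhaf2* of 0.758.

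The 4 pairs of complex IV isoforms with counts for both genes divided along the clusters. *Cox6a2*, the muscle isoform of subunit 6A, was at 2109 CPM in control and 2307 CPM in LPS cells of cluster 3, and at 42.6 and 40.0 CPM in cluster 0. Its partner *Cox6a1* was at 1250 and 1287 CPM in cluster 3 and at 1404 and 1545 CPM in cluster 0. *Cox6a2* thus made up 62.8% of the UMIs of the pair in control (62.2 to 63.4) and 64.2% in LPS cells of cluster 3 (63.5 to 64.9), against 2.94% and 2.52% in cluster 0. UMIs were not divided by gene length, since a 3′ kit counts transcript ends, and the 2 genes of a pair may differ in capture.

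*Cox8b*, the muscle isoform of subunit 8, stood at 550 CPM in control and 533 CPM in LPS cells of cluster 3, and at 8.14 and 6.35 CPM in cluster 0. Its share with *Cox8a* was 26.4% and 25.3% in cluster 3, so *Cox8a* remained the more abundant of the pair there, unlike *Cox6a1*. For *Cox7a1*, the muscle isoform of subunit 7A, the files listed 0 UMIs, with the same limit, and *Cox7a2* was not analysed here, so no share was computed.

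*Cox4i2* and *Cox6b2* followed another course, with their highest shares in cluster 2, which the authors left without a name. In control cells its pericyte markers summed to 1216 CPM and its smooth muscle markers to 2430 CPM, against 228 and 716 CPM in cluster 0. Fibroblast markers stood at 4950 CPM in cluster 2 and at 9553 CPM in cluster 0. *Cox4i2*, an isoform of subunit 4 known from lung and from oxygen sensing, took 16.0% in control and 16.1% in LPS cells of cluster 2, at 277 and 294 CPM. In cluster 0 its share was 3.64% and 3.51%, and in cluster 3 it was 0.947% and 0.886%. *Cox6b2*, known as the testis isoform of subunit 6B, made up 14.3% and 14.7% of its pair in cluster 2, counted with the main *Cox6b1* entry. Its share was 7.0% and 6.81% in cluster 0, and 2.35% and 1.90% in cluster 3.

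**Figure D2:**
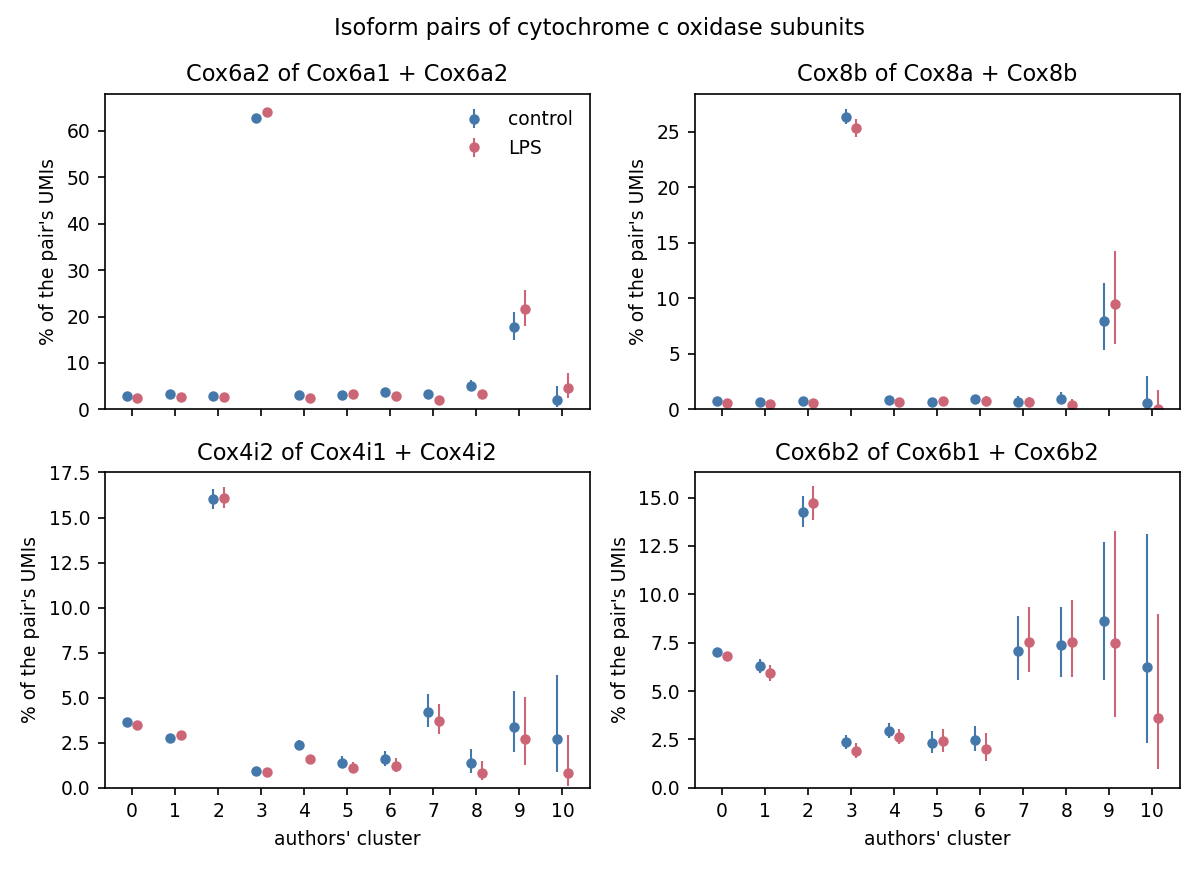
Share of a pair's UMIs taken by the second isoform (percent) in each cluster, for 4 pairs of complex IV subunits, with 1 point per library and Clopper-Pearson intervals at 95%. *Cox6a2* and *Cox8b* peak in cluster 3, at 62.8% and 26.4% in control, while *Cox4i2* and *Cox6b2* peak in cluster 2, at 16.0% and 14.3%.

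The 3 genes for subunit c of ATP synthase encode the same mature protein. *Atp5mc3* made up 35.1% of their UMIs in control and 35.5% in LPS cells of cluster 3, against 14.1% and 14.2% in cluster 0. In level it stood at 1280 and 295 CPM in control cells of these clusters, a 4.33-fold difference (4.23 to 4.44). *Atp5mc2* was the most abundant in cluster 0 with 55.5% in control and 50.7% in LPS cells, and *Atp5mc1* took 30.3% and 35.1% there.

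Low counts of the muscle isoforms outside cluster 3 were compared with those of other cardiomyocyte genes. The *Cox6a2* level of cluster 0 was 2.02% of that of cluster 3 in control and 1.73% in the LPS library, and that of *Cox8b* was 1.48% and 1.19%. The 6 measured cardiomyocyte markers lay between 1.14% and 2.26% in control and between 0.487% and 1.86% in the LPS library. After thinning each cell to 3000 UMIs, 98.6% of control cells in cluster 3 and 12.0% in cluster 0 held a *Cox6a2* UMI, while without thinning it was 99.9% and 42.9% of cells with medians of 7526 and 12968 UMIs each. The muscle isoform levels of cluster 0 thus lay within the range of these markers and were not read as expression in fibroblasts. Their source was not tested.

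Cells of cluster 3 spanned a wide range of mitochondrial shares. The median share of a cell's UMIs from mitochondrial genes was 17.9% in control and 17.3% in LPS cells, and 286 and 290 cells were over 20%. In cluster 0 the medians were 3.37% and 2.94% and no cell was over 20%. Cluster 9, with 66 control and 58 LPS cells, had medians of 14.02% and 12.6% and reached 85.5% and 82.6%.

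**Figure D3:**
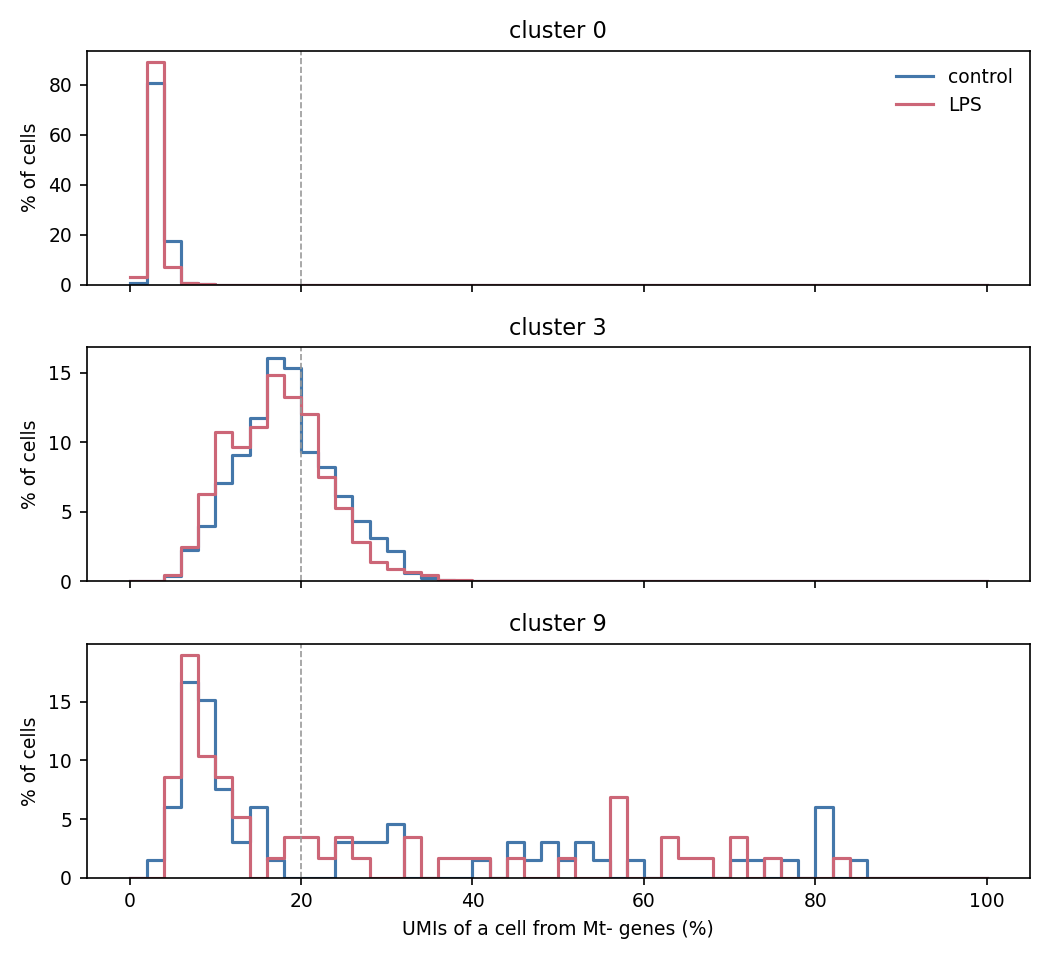
Share of cells (percent) against the share of a cell's UMIs that came from mitochondrially encoded genes, in bins of 2%, for clusters 0, 3 and 9, with 1 line per library and a dashed line at 20%. Cluster 0 lies below 20%, cluster 3 centres on medians of 17.9% and 17.3%, and cluster 9 runs from 3.36% to 85.5% in control.

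Within cluster 3 the nuclear genes were compared across 3 sets of cells ordered by mitochondrial share, with as near as possible the same number of cells, per 1000000 non-mitochondrial UMIs. From the set with the lowest to that with the highest share they stood at 62374, 68901 and 69601 in control, and at 60943, 72513 and 72936 in the LPS library. The cardiomyocyte markers stood at 9788, 13401 and 14897 in control and at 9942, 14221 and 15977 in the LPS library. Fibroblast markers ran the other way, at 4784, 2829 and 2517 in control and at 4686, 1888 and 1662 in the LPS library. The nuclear genes and the cardiomyocyte markers were thus lowest, and the fibroblast markers highest, in the cells with the smallest mitochondrial share, which were also the deepest, with a median of 9678 UMIs in control against 6573 in the cells with the highest share. The part of depth or of mixed cells in this order was not tested.

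Cluster 9 held unlike cells. Its 38 control and 33 LPS cells at or under 20% mitochondrial UMIs had cardiomyocyte markers at 201 and 394 per 1000000 non-mitochondrial UMIs and nuclear genes at 35799 and 35540. Fibroblast markers stood at 21634 and 16294 in these cells, against 9893 and 9003 in cluster 0. Its 28 and 25 cells over 20% had markers at 9176 and 9019 and nuclear genes at 45653 and 48753, with fibroblast markers at 7951 and 6846. The nuclear level of the first set lay beside that of cluster 0, at 36466 and 37110, and that of the second between clusters 0 and 3. Values of cluster 9 as a whole therefore average over these cells.

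The summed mitochondrial level was lower in the LPS library in 11 of 11 clusters, with every interval below 1 and ratios from 0.789 in cluster 6 to 0.974 in cluster 9. In cluster 0 it was 30061 against 34347 CPM, a ratio of 0.875 (0.874 to 0.877), and in cluster 3 it was 160386 against 170256 CPM, a ratio of 0.942 (0.939 to 0.945). In macrophages of cluster 6 it was 33596 against 42597 CPM. The median ratio over all genes was itself 0.914 in cluster 0, 0.996 in cluster 3 and 0.808 in cluster 6, shifts of -0.13, -0.01 and -0.31 on the log2 scale. With LPS levels rescaled so that this median was 1, the sum stayed below 1 in all 11 clusters, between 0.813 and 0.985, and came to 0.958 in cluster 0 and 0.976 in cluster 6. The shallower cells of the LPS library went along with this difference, and the part of depth was not tested.

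The nuclear sum was 35995 against 35214 CPM in cluster 0, a ratio of 1.022 (1.021 to 1.024), and 56478 against 54832 CPM in cluster 3, a ratio of 1.030 (1.025 to 1.035). It was above 1 in 9 of 11 clusters, where cluster 9 had an interval that included 1 (0.995 to 1.05). The exceptions were endothelial cluster 5 with 30302 against 31374 CPM, a ratio of 0.966, and macrophage cluster 6 with 29112 against 33379 CPM, a ratio of 0.872. With the rescaling these 2 turned to 1.004 and 1.08, so their direction depended on the scaling. Relative to the median gene the nuclear sum lay above 1 in all 11 clusters, from 1.004 in cluster 5, close to 1, up to 1.12. Abundant genes weigh most in such a sum. By single members of cluster 6, 45 of 92 were higher and 47 lower after rescaling. In cluster 0 the rescaled nuclear sum stood at 1.12 and the mitochondrial sum at 0.958, so which of the sums lay further from control depended on the scaling too.

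Within the mitochondrial genome the genes differed in size and direction. *Mt-nd6* was higher after LPS in 8 clusters and *Mt-co1* in 4, each with 3 intervals above 1, and *Mt-cyb* was higher in cluster 10 with a ratio of 1.14, its interval above 1. In cluster 0, 12 of 13 genes were lower after LPS and 1, *Mt-atp8*, was past 1.5-fold, with 16.5 against 28.5 CPM and a ratio of 0.579. That was 1 of 13, where 19.7% of all genes in cluster 0 were past 1.5-fold lower. *Mt-nd4* stood at 615 against 842 CPM, *Mt-nd5* at 103 against 139 CPM and *Mt-nd2* at 913 against 1233 CPM, with ratios of 0.730, 0.739 and 0.741. *Mt-nd3* followed at 650 against 846 CPM, a ratio of 0.768. These are subunits of complex I, the NADH dehydrogenase.

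Of the complex IV genes in the same cells, *Mt-co1* stood at 3129 against 3275 CPM, *Mt-co2* at 4309 against 4840 CPM and *Mt-co3* at 5237 against 5986 CPM, with ratios of 0.956, 0.890 and 0.875. *Mt-cyb*, the complex III subunit, stood at 3136 against 3440 CPM (0.912), *Mt-nd1* at 4096 against 4524 CPM (0.905) and *Mt-atp6* at 7809 against 9152 CPM (0.853). *Mt-nd4l*, with 612 control and 442 LPS UMIs, had a ratio of 0.886. The ratios of the complex I genes *Mt-nd1* and *Mt-nd4l* thus lay among those of complex IV. Rescaling turned *Mt-co1* to 1.05 and left the other 11 lower genes below 1.

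*Mt-nd6* was the 1 gene above control in cluster 0, at 40.4 against 34.3 CPM, a ratio of 1.18 (1.12 to 1.24), and at 79.9 against 61.2 CPM in cluster 3, a ratio of 1.31 (1.14 to 1.496). Of the 10 clusters where it had 50 UMIs it was lower in 2, with no interval below 1. In cluster 3, *Mt-co1* was higher too, at 29377 against 27176 CPM and a ratio of 1.08, while *Mt-co3* stood at 30961 against 31070 CPM (0.996, or 1.00 after rescaling). *Mt-nd2* was at 3805 against 5121 CPM there (0.743), *Mt-nd5* at 330 against 421 CPM (0.784), *Mt-nd4* at 5039 against 6151 CPM (0.819) and *Mt-atp8* at 33.9 against 52.1 CPM (0.651). The order among the genes was thus alike in these clusters, which were measured in the same libraries.

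**Figure D4:**
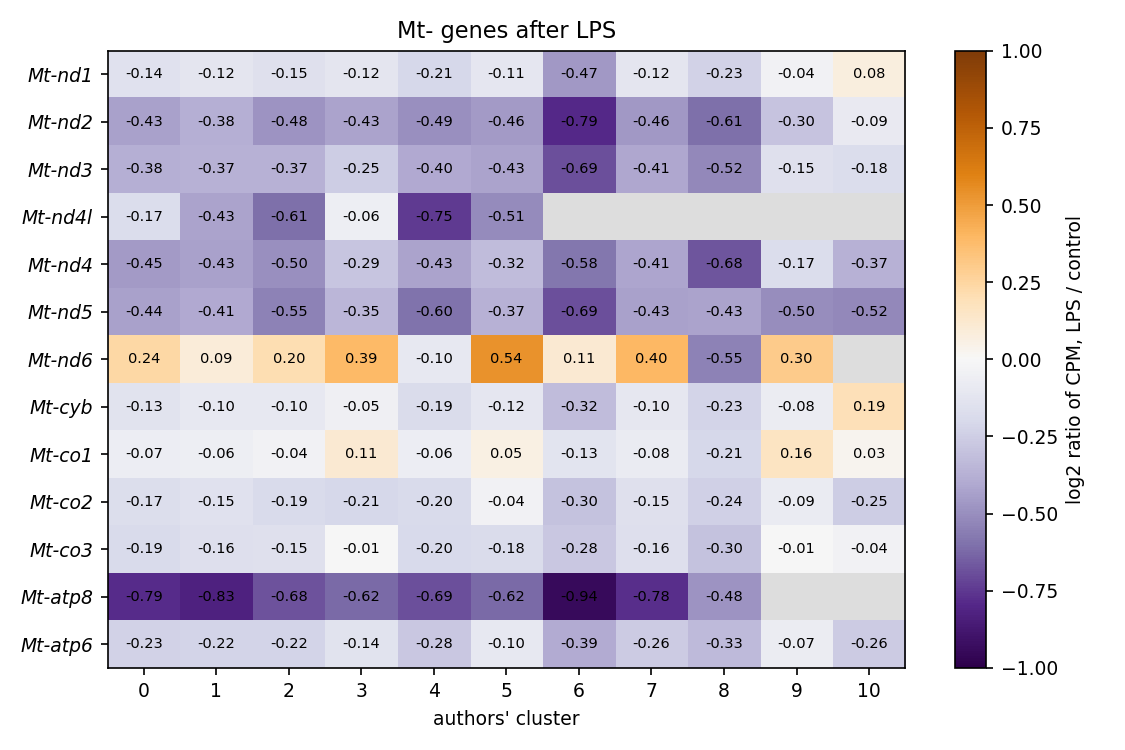
Log2 ratio of CPM, LPS to control, for the 13 mitochondrial genes (rows) in the 11 clusters (columns), grey where the gene had under 50 UMIs. *Mt-atp6*, *Mt-atp8*, *Mt-co2*, *Mt-co3*, *Mt-nd2*, *Mt-nd3*, *Mt-nd4*, *Mt-nd4l* and *Mt-nd5* are below 0 wherever shown. *Mt-nd6* is above 0 in 8 of 10 clusters and *Mt-co1* in 4 of 11. The median log2 ratio of all genes was -0.13 in cluster 0 and -0.31 in cluster 6, and -0.12 in cluster 2. Relative to it *Mt-co1* turns above 0 in all 3, *Mt-cyb* in cluster 2, and *Mt-co2* and *Mt-co3* in cluster 6.

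By complex, the mitochondrial subunits of complex I had a summed ratio of 0.842 in cluster 0, 0.864 in cluster 3 and 0.683 in cluster 6, and those of complex IV had 0.899, 0.987 and 0.847. The nuclear subunits of complex I had ratios of 1.02, 1.00 and 0.802, and those of complex IV 1.05, 1.04 and 0.955. For both complexes the mitochondrial ratio was therefore lower than the nuclear one in all 3 clusters, an order that rescaling within a cluster leaves as it is, although in cluster 6 it turned both complex IV sums above 1 (to 1.05 and 1.18). For complex III in cluster 6 the order was the other way, at 0.800 against 0.786. The nuclear subunits of complex V stood at 0.989 in cluster 0, which became 1.08 after rescaling, at 1.03 in cluster 3 and at 0.817 in cluster 6, which became 1.01.

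Single nuclear genes seldom moved far. In cluster 0, 3 of 104 tested were past 1.5-fold higher after LPS and 0 were past 1.5-fold lower, where 6.92% and 19.7% of all genes were. These shares take in every gene with at least 50 UMIs, and the part of low counts in them was not tested. In cluster 3 the counts were 2 and 0 of 99, where all genes gave 4.38% and 5.4%, and both counts were 0 without the 8% of cells with the most UMIs. The median ratio was 0.997 in cluster 0 and 1.01 in cluster 3, against 0.914 and 0.996 over all genes. Rescaling moved the split in cluster 0 from 51 higher and 53 lower to 90 higher and 14 lower, and the members past 1.5-fold to 4 and 0. The shares of all genes given above are without rescaling, so they are no background for these rescaled counts. Just inside the line in cluster 0 was the second *Cox6b1* entry (1.51), whereas *Ndufaf4* (1.72) had its whole interval past it (1.58 to 1.87). The nearest outside it were *Cox17* (1.45) and the second *Ndufa10l1* entry (0.725). The second *Cox6b1* entry went from 12.3 to 18.5 CPM, whereas the far more abundant main entry went from 671 to 621 CPM.

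The largest ratio in cluster 0 and over all cells belonged to *Sdhaf1*, an assembly factor that helps to insert iron-sulphur clusters into the SDHB subunit of complex II. In cluster 0 it stood at 93.3 CPM in control and 245 CPM in the LPS library, a 2.63-fold difference (2.56 to 2.70). It was higher after LPS in 11 of 11 clusters, with every interval above 1. In cluster 3 it went from 81.8 to 129 CPM, a ratio of 1.57 (1.41 to 1.76), or 0.65 on the log2 scale, which became 0.56 and no longer past 1.5-fold without the 8% of cells with the most UMIs. In cluster 2 it went from 110 to 305 CPM (2.77), in endothelial cluster 4 from 118 to 244 CPM (2.07) and in macrophages from 82.8 to 120 CPM (1.45), the lowest ratio of the 11. Relative to the median gene the *Sdhaf1* ratio was 1.80 in macrophages and 1.58 in cluster 3, so this rank depended on the scaling. After thinning, 24.3% of control and 50.7% of LPS cells in cluster 0 held an *Sdhaf1* UMI, and unthinned the shares were 67.5% and 87.7%.

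The complex II subunits did not share this course. In cluster 0 *Sdha*, the flavoprotein, stood at 48.5 in control and 44.6 CPM in the LPS library, *Sdhb*, the iron-sulphur subunit, at 187 and 180 CPM, *Sdhc* at 196 and 172 CPM and *Sdhd*, with *Sdhc* the membrane anchor, at 108 and 101 CPM. Their sum had a ratio of 0.923 in cluster 0, which became 1.01 after rescaling, of 0.960 in cluster 3 and of 0.688 in cluster 6. Of the other complex II factors, *Sdhaf2*, which attaches the flavin, stood at 32.6 and 30.4 CPM, *Sdhaf3* at 0.519 and 0.569 CPM, and *Sdhaf4* at 3.65 and 4.83 CPM in cluster 0. *Sdhaf4* was also past 1.5-fold in cluster 3, with 26 and 32 UMIs and an interval from 0.918 to 2.78.

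*Cox17*, the copper chaperone of complex IV, was higher after LPS in 11 of 11 clusters, with 9 intervals above 1. The limit given for the clusters of *Sdhaf1* holds here too. Macrophages had both the highest level and the highest ratio of *Cox17*, with 558 CPM in control and 1052 CPM in the LPS library, a 1.89-fold difference (1.77 to 2.01). In cluster 0 it went from 169 to 244 CPM (1.45), and in cluster 3 from 437 to 506 CPM (1.16). *Ndufaf4*, a complex I assembly factor, went from 10.6 to 18.2 CPM in cluster 0 (1.72). In macrophages, however, it stood at 8.05 against 14.8 CPM (0.545) on 46 control and 20 LPS UMIs. After rescaling that ratio was 0.674, still below 1 but no longer past 1.5-fold. *Cox14*, which acts early in the assembly of complex IV, was higher in 6 of 6 clusters with enough UMIs, at 1.33 in cluster 3 (0.999 to 1.77). Macrophages fell short of that minimum for *Cox14*, with 30 control and 13 LPS UMIs. Their ratio of 0.543 pointed the other way, with an interval that included 1 (0.26 to 1.07).

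Summed over the 25 factors the ratio was 1.16 in cluster 0, 1.09 in cluster 3 and 1.15 in cluster 6. Without *Sdhaf1* and *Cox17*, a pair chosen after their values were seen, it was 1.03, 1.06 and 0.886, the last of which became 1.10 after rescaling. As a sum the other factors were therefore close to the structural subunits, at 1.02, 1.03 and 0.852, the last of which became 1.05. In cluster 0 the largest parts of that factor sum were *Atp5if1*, at 584 CPM in control and 672 CPM in the LPS library, and *Cox7a2l*, at 407 and 378 CPM. The sum therefore says little about the rarer factors.

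**Figure D5:**
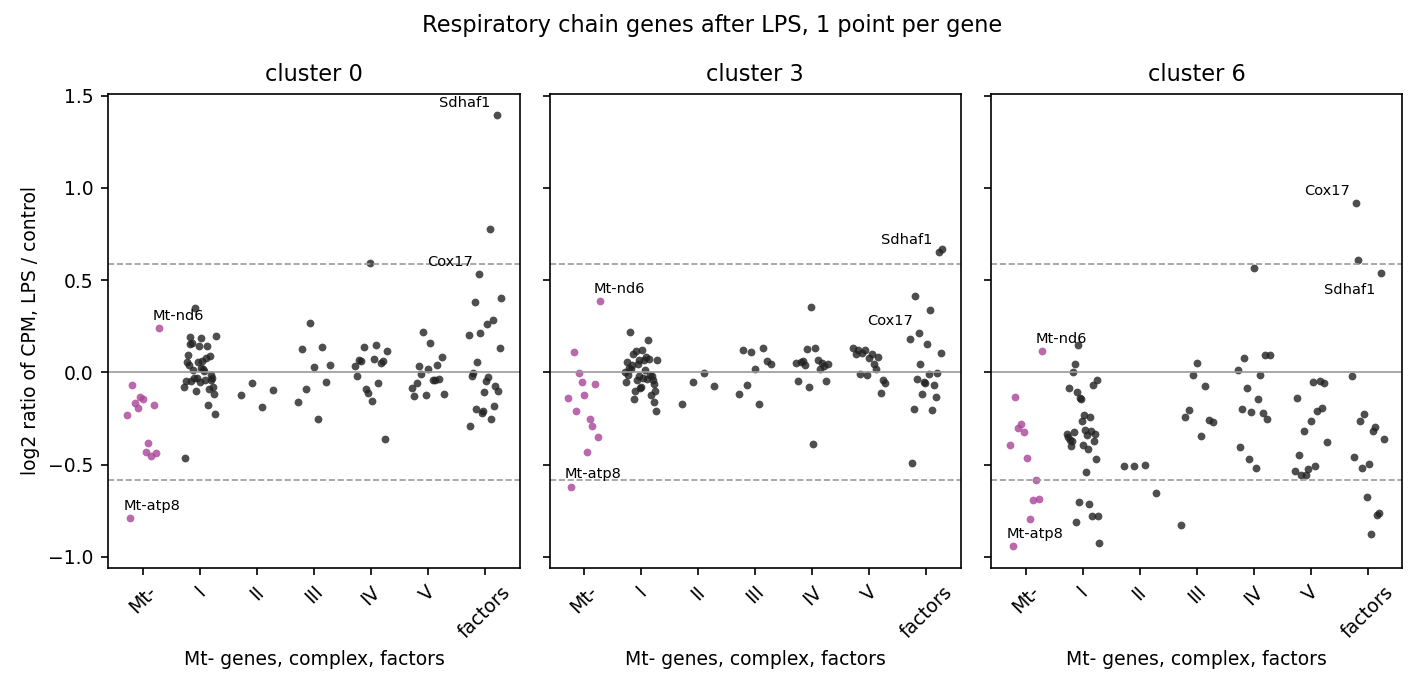
Log2 ratio of CPM, LPS to control, with 1 point per member with at least 50 UMIs in the cluster, for clusters 0, 3 and 6, grouped as mitochondrial genes, structural nuclear subunits of complexes I to V, and factors, with dashed lines at 1.5-fold. *Sdhaf1* at 2.63-fold in cluster 0 and *Cox17* at 1.89-fold in cluster 6 stand apart. Most members of cluster 6 lie below 0, 80 of 92 nuclear ones, which becomes 47 of 92 relative to the median gene.

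Among clusters 0, 3 and 6 the macrophages had the most members past 1.5-fold. In cluster 6, 2 of 92 nuclear members were past 1.5-fold higher (*Cox17* and *Cox18*) and 12 past 1.5-fold lower, and 8.8% and 30.8% of all genes were. *Cox18* had 23 and 28 UMIs and an interval from 0.847 to 2.77, which includes 1. The median ratio of 0.803 was close to that of all genes at 0.808, and after rescaling 4 were past 1.5-fold higher and 1 lower. The shares of all genes were not rescaled, so the rescaled counts have no background here. Among nuclear members with at least 200 UMIs, the lowest were the main *Ndufv3* entry with 68.8 against 130 CPM (0.528) and *Uqcr10*, a small complex III subunit, with 548 against 972 CPM (0.564). *Ndufa8* stood at 114 against 199 CPM (0.571) and *Ndufv2*, which carries an iron-sulphur cluster of complex I, at 93.7 against 161 CPM (0.583). Of the mitochondrial genes 4 of 12 were past 1.5-fold lower there (*Mt-atp8*, *Mt-nd2*, *Mt-nd3* and *Mt-nd5*), and *Mt-nd6* stood at 15.3 against 14.1 CPM. Nothing particular to the respiratory chain was read from these counts.

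The most abundant nuclear members were all complex IV subunits. Over all control cells *Cox6a1* stood at 1378, *Cox4i1* at 1312, *Cox6c* at 1217, *Cox7c* at 1169 and *Cox8a* at 1139 CPM, and in the LPS library at 1518, 1358, 1283, 1225 and 1180 CPM, each as UMIs not divided by length. Their LPS to control ratios ran from 1.03 to 1.10. In cluster 3, *Cox6c* reached 2111 CPM in control, 1.81 times cluster 0, and *Cox7b* reached 948 CPM, 1.91 times cluster 0, whereas *Ndufa4*, now counted as a complex IV subunit, stood at 993 and 1015 CPM in clusters 3 and 0.

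Other genes of mitochondrial metabolism were counted from lists of electron carriers, metabolite carriers, assembly factors, the tricarboxylic acid cycle and the control of mitochondrial biogenesis, 45 genes of which 40 were matched. In cluster 3 against cluster 0 of the control library, 20 of 38 tested were past 1.5-fold higher and 2 lower, with a median ratio of 1.55, where 25.4% and 25.9% of all genes were. The tricarboxylic acid cycle gave 7 higher of 10, among them *Cs* and *Idh3a*, and the biogenesis list gave 5 higher of 10, among them *Esrra* and *Gabpa*. After LPS the same lists gave 1 higher (*Cycs*, cytochrome c) and 2 lower (*Polg* and *Ucp2*) of 38 in cluster 0, where 6.92% and 19.7% of all genes were past 1.5-fold, and 0 of 35 in either direction in cluster 3, where 4.38% and 5.4% were. *Ucp2*, an uncoupling protein family member, stood at 17.4 CPM in control and 9.68 CPM in the LPS library in cluster 0. *Cycs* was counted at 1.28 and 1.97 CPM there. Many respiratory chain genes have near-identical processed copies in the genome, and reads shared with them may have been split or dropped in counting.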

How the data were processed

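Per the labels, single-cell libraries were made with the Chromium Single Cell 3′ kit, v2. The submitters' processing notes name Cell Ranger 2.2.0 and Seurat 2.3.4. The genome build and annotation are not given in the sources used here. For each library the authors deposited UMI counts for every gene in every barcode, as whole numbers that were not normalized, and a table with a cluster and a cell type per cell. By the methods, the clusters came from RunCCA and FindClusters at a resolution of 0.5.

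UMI counts were summed per cluster and library and divided by all UMIs of that class, per 1000000 (CPM), with Python 3.11.15 and its packages pandas 2.3.3, numpy 2.4.6, scipy 1.17.1 and matplotlib 3.10.9. All deposited cells with a cluster were used. No doublet caller was run, and an alternative left out the 8% of cells with the most UMIs of each cluster and library. Depth was 152624585 UMIs for control and 127580475 for LPS cells. A gene was counted as past 1.5-fold when its CPM ratio was at least 1.5 or at most its inverse, where the 2 libraries together (or the 2 clusters, for clusters) had 50 or more UMIs of the gene in that class. No p-value was computed, since cells of 1 library are not replicates. Thinning drew 3000 UMIs per cell without replacement, and 6 LPS cells of cluster 0 and 3 of cluster 3 were too shallow for it. The ratio and interval code was tested on simulated data.

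The members, the lists and the rules were chosen with earlier results of these data known. The genes named were every Mt- gene, the isoform pairs, every Sdh gene, the 5 nuclear members with the largest ratios in clusters 0, 3, 6 and all cells and the 5 furthest apart in either direction between clusters 3 and 0 (at least 200 UMIs), and the 5 with the highest level. Other genes were named after their values were seen. Promoter sequences are from RefSeq, build GRCr8, matched by symbol, with 14 of 106 nuclear symbols unmatched.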

Additional observations from a re-analysis of the deposited data

Results flagged for a closer look

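The summed nuclear respiratory chain genes had LPS to control ratios above 1 in the other clusters, but were lower after LPS in endothelial cluster 5, with a ratio of 0.966, and in macrophage cluster 6, with a ratio of 0.872. Both intervals lay below 1. The difference between clusters was not tested, since each condition has 1 library, and the median ratio over all genes in these clusters was 0.962 and 0.808.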

How the results depend on the processing

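No paired analysis was possible because there is a single library for control and another for LPS. Of the 93 alternative values given or counted here none turned a direction (not among them are values that rescaling turned, as with the nuclear sums of clusters 5 and 6, at 1.004 and 1.08, several sums by complex and single genes, or that the non-mitochondrial denominator turned, as with the nuclear sum of cluster 9 against cluster 0, from 0.841 to 1.05), 57 stayed within the counting interval (for counts, within 1.5 times) and 36 moved, most by little, since the intervals are narrow. On the log2 scale the mitochondrial LPS to control sums were -0.09 in cluster 3 and -0.19 in cluster 0. The mean over cells gave -0.078 in cluster 3, a non-mitochondrial denominator -0.10 and -0.20, leaving out cells over 20% mitochondrial -0.064 in cluster 3, leaving out the cells with the most UMIs -0.091 in cluster 3, and rescaling to the median gene -0.081 and -0.062. The nuclear sums, 0.04 in cluster 3 and 0.03 in cluster 0, became 0.026 and 0.025 with the non-mitochondrial denominator, 0.024 in cluster 3 without cells over 20%, 0.016 in cluster 3 without the deepest cells, 0.16 in cluster 0 with rescaling and 0.021 in cluster 0 for structural subunits. Cluster 3 against cluster 0 gave 2.31 for the mitochondrial and 0.64 for the nuclear sum, and the same settings gave 2.40 and 0.67 (mean over cells), 2.53 and 0.86 (denominator), 2.05 and 0.66 (without cells over 20%), 2.42 and 0.70 (without the deepest cells), and 0.65 for structural subunits.

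In cluster 3 the 2 nuclear members past 1.5-fold became 1 with at least 200 UMIs, 4 with at least 10, and 0 without the deepest cells, where *Sdhaf1* stood at 0.56 and *Sdhaf4* at 0.36 on the log2 scale. The *Cox6a2* share of 62.8% became 64.6%, 65.0% and 61.5%, and the *Cox8b* share of 26.4% became 27.5%, 27.6% and 24.3%, with the mean over cells, without the deepest cells and without cells over 20%. Alternatives for single genes, and leaving out barcodes found in both libraries, were chosen after seeing the data, and 35 of 40 single-gene values stayed within the interval. Depth limits *Sdhaf4*, *Ndufaf4* and *Cox15* in cluster 3, with 26, 101 and 11 control UMIs.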

Other observations

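The 2 control and 8 LPS cells without a cluster had between 84.3% and 90.4% and between 83.7% and 92.7% of their UMIs from mitochondrial genes. Their median depths were 4197 and 3044 UMIs, of which 523 and 369.5 were from other genes. Cardiomyocyte markers stood at 10516 and 19502 per 1000000 of these other UMIs, and nuclear respiratory chain genes at 25813 and 36651.

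Among genes of mitochondrial metabolism outside the members, *Higd1a*, which associates with complex IV, stood at 211 CPM in control and 276 CPM in the LPS library in cluster 0 (1.31), and at 185 and 292 CPM in macrophages (1.58). *Gpd2*, the mitochondrial glycerol-3-phosphate dehydrogenase, stood at 26.0 and 41.4 CPM in macrophages (1.59) and at 6.27 and 6.22 CPM in cluster 0. *Tfam*, the main mitochondrial transcription factor, stood at 53.0 and 32.2 CPM in macrophages (0.607) and at 63.5 and 62.5 CPM in cluster 0 (0.983). The median ratio over all genes was 0.808 in macrophages and 0.914 in cluster 0, and 30.8% of all genes in macrophages were past 1.5-fold lower. *Ppargc1a*, a coactivator of mitochondrial genes, was counted with 19 control UMIs and 0 LPS UMIs in cluster 0, against 18 and 16 in cluster 3. These genes were named after their values were seen.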
